A study of Mus musculus with 12 samples.

Results

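Basement membrane genes were followed in the germ cell and the Sertoli cell fraction of testes, taken from mice labelled TAp73 knockout and from controls. TAp73 denotes the products of Trp73, a gene of the p53 family, that include the transactivation domain. The set comprised 33 genes, chosen by symbol as known structural components of basement membranes, and every probe whose accession maps to one of those symbols was taken. This gave 48 of the 39429 probes on the array, and the 33 genes were all among the 25029 genes tested. They were 10 laminin chains (Lama1 to Lama5, Lamb1 to Lamb3, Lamc1 and Lamc3), the 6 collagen IV chains (Col4a1 to Col4a6), 4 linkers and proteoglycans (Nid1, Nid2, Hspg2 and Agrn), 3 other collagens of the basement membrane zone (Col15a1, Col18a1 and Col7a1), Fras1, Frem1, Frem2 and Npnt as a group of 4, and 6 matricellular or associated proteins (Sparc, Smoc1, Smoc2, Fbln1, Fbln2 and Ntn4).

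All animals were male C57BL/6J mice, 3 with the source name knockout (mice 120, 86 and 72) and 3 with the source name wildtype (mice 99, 73 and 74). Each mouse gave 1 germ cell pellet and 1 Sertoli cell sample, which made 4 groups of 3 and 12 single-colour Agilent arrays. Ages were 4 months for mouse 120, 5 months for mouse 99 and 8 months for the rest. In the sample titles, however, mice 73 and 74 are het, so the word control stands for the source name and the group may hold a single wildtype animal. How the knockout was made is not given in the sources used here. Trp73 itself gave signal on all 6 knockout arrays, and on each of its 3 probes the knockout mean was above the control mean in both fractions. The control means rest in part on mouse 99, titled WT. On 1 probe mouse 99 lay at -9.40 in the germ and -9.42 in the Sertoli fraction. Mice 73 and 74 lay at -3.63 and -4.15 in the germ and at -2.50 and -3.23 in the Sertoli fraction, still below the knockout arrays. On another, mouse 99 lay at -8.7 and -8.5, and mouse 74, at -4.39 and -5.40, reached the knockout values. Since the part of the gene that these probes cover is not given either, they check nothing about the deletion.

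A basement membrane is a thin sheet of matrix that underlies epithelia and surrounds muscle, fat and nerve cells. Laminins, each made of an alpha, a beta and a gamma chain, form a network at the cell surface, and collagen IV forms a second, covalently linked network that gives the sheet its strength. Nidogens, perlecan and agrin tie the networks together and bind growth factors. In the testis, the seminiferous tubule rests on a basement membrane to which Sertoli cells and the peritubular myoid cells that wrap the tubule both contribute. Germ cells lie inside the tubule, and among them spermatogonia touch the sheet.

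Genes of the collagen IV family sit in head-to-head pairs, and the start regions of one such pair are printed first. Both genes of this pair were among the 6 members with the largest difference, higher in the Sertoli fraction, between control fractions. RefSeq promoter windows on GRCm38.p6, from 250 bases before to 50 after a gene's start, matched 23 of the 33 genes, with 29 windows. Col4a1 and Col4a2 lie on opposite strands with their starts 21 bases apart in that table, so that their windows share 78 bases. The windows of Lamb1 and Lamb3 are shown beside them as laminin beta chains with opposite differences between the fractions. Sequences run 5′ to 3′ on the strand of the gene, and capitals mark the letters GGGCGG (the GC box) and CCAAT on either strand.
Col4a1, chr8:11312777-11313076, minus strand: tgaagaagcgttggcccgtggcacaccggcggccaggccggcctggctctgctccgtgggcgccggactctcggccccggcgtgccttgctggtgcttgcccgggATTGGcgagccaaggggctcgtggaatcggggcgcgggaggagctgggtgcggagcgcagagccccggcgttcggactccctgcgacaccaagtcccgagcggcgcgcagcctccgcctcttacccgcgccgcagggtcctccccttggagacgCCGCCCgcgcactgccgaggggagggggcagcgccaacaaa
Col4a2, chr8:11312555-11312854, plus strand: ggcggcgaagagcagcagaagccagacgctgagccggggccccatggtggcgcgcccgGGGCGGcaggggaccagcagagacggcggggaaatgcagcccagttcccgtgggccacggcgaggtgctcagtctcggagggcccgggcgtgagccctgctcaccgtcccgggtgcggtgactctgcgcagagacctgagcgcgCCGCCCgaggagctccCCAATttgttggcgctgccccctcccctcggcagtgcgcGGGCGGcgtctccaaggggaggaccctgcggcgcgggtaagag
Lamb1, chr12:31265043-31265342, plus strand: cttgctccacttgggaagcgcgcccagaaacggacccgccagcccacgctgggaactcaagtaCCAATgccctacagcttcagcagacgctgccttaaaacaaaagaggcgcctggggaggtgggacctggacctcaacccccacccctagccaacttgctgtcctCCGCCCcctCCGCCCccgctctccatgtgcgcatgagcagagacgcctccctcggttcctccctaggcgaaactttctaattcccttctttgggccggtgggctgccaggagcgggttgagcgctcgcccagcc
Lamb3, chr1:193301744-193302043, plus strand: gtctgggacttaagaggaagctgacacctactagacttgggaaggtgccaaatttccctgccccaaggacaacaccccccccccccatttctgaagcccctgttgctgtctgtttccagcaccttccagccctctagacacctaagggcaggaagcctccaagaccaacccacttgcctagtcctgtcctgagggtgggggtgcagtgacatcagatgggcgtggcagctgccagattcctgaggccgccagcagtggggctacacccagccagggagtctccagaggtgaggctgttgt

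The Col4a1 window held 37 CpG dinucleotides and the Col4a2 window 33, against a median of 7 over all 32851 windows of this length. The stretch that both share contains 1 GC box. The Lamb1 window held 18 CpG, 2 GC boxes and 1 CCAAT box. The Lamb3 window shown held 2 CpG and neither box, and a second Lamb3 window of the table, for another start, held 5 CpG and neither box. GGGCGG was found in 17 of the 29 windows, against 35.7% of all windows, CCAAT in 9, against 37.4%, and TATAAA in 0, against 13.6%. Col4a5 and Col4a6, the pair on the X chromosome, have their starts 1343 bases apart. These matches describe letters in a window, and no array value measured these regions.

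Values below are log2 of the processed signal relative to the 75th percentile of the same array. That percentile ranged from 1370 (control Sertoli array of mouse 74) to 5356 intensity units, between 64.1% and 79.0% of probes were well above background on an array, and no probe was flagged as saturated. Within a group, pairs of arrays gave r between 0.969 and 0.993 across genes, which are not independent replicates. The number of arrays, 3 mice per group, limits the precision.

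The first comparison asked how basement membrane genes are distributed between the fractions. In control mice, 30 of the 33 genes were higher in the Sertoli fraction and 1, Lamb3, was lower (limma, Benjamini-Hochberg adjusted p under 0.05). Among all tested genes, 39.8% were higher and 36.6% lower in the same comparison. The median log2 difference, Sertoli minus germ fraction, was 3.43 over the 33 genes and 0.20 over all tested genes. In knockout mice 28 genes were higher and Lamb3 again was the 1 lower gene, against 37.9% and 37.1% of all tested genes, with medians of 3.27 and 0.09. Fras1 and Smoc1 did not pass in either genotype, and Lama3 and Frem2 passed in control mice only, a contrast between genotypes that was tested as an interaction and did not pass for either gene (adjusted p of 1 for both).

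Fbln2, which encodes fibulin-2, a glycoprotein that binds laminin and nidogen, had the largest difference. It lay at -3.69, -3.44 and -3.03 in the germ fraction of control mice 99, 73 and 74. In their Sertoli fraction it lay at 6.28, 6.39 and 6.77. Each mouse thus gave nearly the same difference, and the fit put it at 9.87 ± 0.23 (SE, adjusted p 1.29e-10) in control and 9.33 ± 0.23 in knockout mice.

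Col4a1 and Col4a2 encode the chains of the most widespread collagen IV trimer. Col4a1 lay at -2.41, -2.10 and -1.98 in the germ fraction of control mice 99, 73 and 74 and at 6.09, 5.65 and 5.92 in their Sertoli fraction. Col4a2 lay at -2.75, -2.09 and -1.70 in the germ and at 5.26, 4.75 and 5.67 in the Sertoli fraction of the same mice. The groups were far apart for both chains, with differences of 8.05 ± 0.20 and 7.41 ± 0.35. Col4a5, the chain mutated in the X-linked form of Alport syndrome, lay at -4.75, -3.99 and -3.78 in the germ and at 3.43, 3.54 and 2.73 in the Sertoli fraction, a difference of 7.41 ± 0.30. The difference was 6.25 ± 0.33 for Col4a6, 4.68 ± 0.43 for Col4a3 and 3.92 ± 0.35 for Col4a4. A second Col4a6 probe gave 1.29 ± 0.46 (adjusted p 0.025), with overlapping arrays, and the mean of both probes 3.77. All 6 chains therefore passed, and the collagen IV median of 6.83 was the highest of the 6 role groups.

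Lamc1 encodes the gamma chain shared by most laminins. It lay at -2.60, -2.25 and -1.64 in the germ fraction of control mice 99, 73 and 74 and at 4.54, 4.19 and 4.80 in their Sertoli fraction, a difference of 6.67 ± 0.28. The difference of Lamb1 (6.48 ± 0.25), its usual beta partner, was close to it, followed by Lama4 (6.15 ± 0.20), an alpha chain of vessels and mesenchyme, and Lama1 (5.20 ± 0.26), an alpha chain of embryonic and tubular basement membranes. Lamb2 differed by 4.49 ± 0.34, Lama2, the alpha chain of muscle laminin, by 2.92 ± 0.30, Lamc3 by 2.36 ± 0.24 and Lama5 by 2.01 ± 0.22. Lama3, an alpha chain of epidermal laminin, differed by only 0.66 ± 0.24 (adjusted p 0.0278).

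Lamb3, the beta chain of the same epidermal laminin, also described at the junction between Sertoli cells and spermatids, went the other way. It lay at -0.87, -0.97 and -1.01 in the germ fraction of control mice 99, 73 and 74 and at -4.35, -4.02 and -4.16 in their Sertoli fraction. In knockout mice 120, 86 and 72 it lay at -1.09, -1.08 and -1.04 in the germ and at -4.32, -4.26 and -5.42 in the Sertoli fraction. The groups did not overlap in either genotype, with differences of -3.23 ± 0.27 (adjusted p 7.3e-07) in control and -3.60 ± 0.27 (3.14e-07) in knockout mice.

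**Figure D1:**
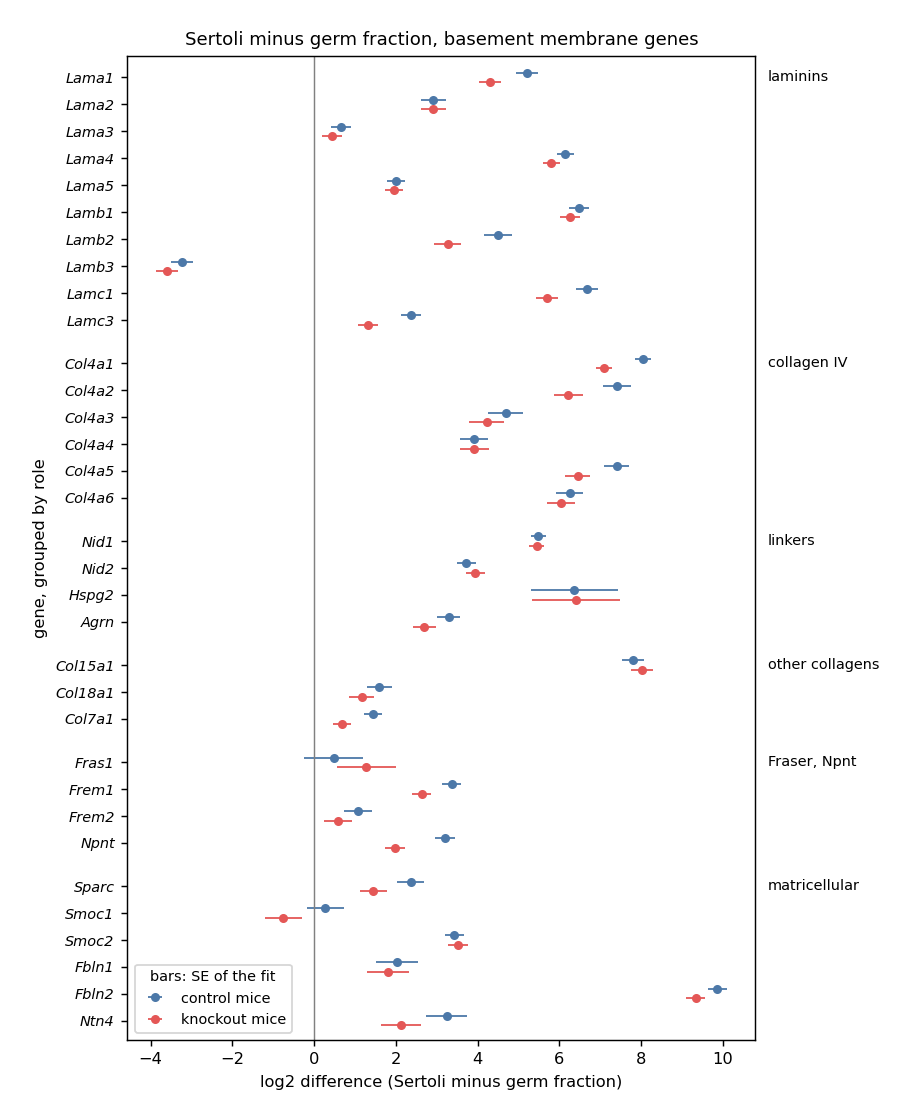
The log2 difference between the Sertoli and the germ fraction (x axis, Sertoli minus germ) is plotted for each of the 33 genes (y axis, grouped by role), in control mice (blue) and knockout mice (red), with points at the fitted difference and bars for its SE. Nearly all points lie right of 0, from Fbln2 at 9.87 in control mice down to values near 0, and Lamb3 alone lies far to the left, at -3.23 and -3.60.

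Of the linkers, Nid1 (nidogen-1) was 5.48 ± 0.19 higher and Nid2 3.72 ± 0.23 higher in the Sertoli fraction of control mice. Agrn (agrin) was 3.29 ± 0.28 higher, and Hspg2, which encodes perlecan, 6.37 ± 1.07 higher, the widest error in the set. Col15a1, a collagen that anchors basement membranes to the matrix beneath, lay at -0.93, -1.75 and -1.23 in the Sertoli fraction of control mice 99, 73 and 74. On none of the 6 germ arrays was its probe well above background, so that it entered the test through the Sertoli fraction and had to differ. The ratio is a lower bound, at least 53.7-fold higher in the Sertoli fraction of control mice and at least 69.1-fold higher in that of knockout mice. For the bound, each germ array counted at its own probe signal or at its dimmest probe well above background, whichever was greater. Col18a1, the source of endostatin, differed by 1.59 ± 0.30, and Col7a1, which forms anchoring fibrils, by 1.44 ± 0.22.

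Among the Fraser complex genes, which encode a protein complex of embryonic epithelial basement membranes, Frem1 was 3.37 ± 0.23 higher in the Sertoli fraction and Frem2 1.06 ± 0.34 higher. Fras1 gave 0.47 ± 0.72 and did not pass. Npnt, which encodes nephronectin, a ligand of integrin alpha 8 beta 1, was 3.19 ± 0.24 higher. Of the matricellular group, Smoc2 (3.43 ± 0.24), Ntn4 (3.24 ± 0.50), Sparc (2.36 ± 0.33) and Fbln1 (2.02 ± 0.51) were higher, and Smoc1 gave 0.27 ± 0.45. In knockout mice Smoc1 lay 0.76 ± 0.45 below 0 in the same direction of subtraction, and this did not pass either (adjusted p 0.151).

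Markers of some other cell types moved with these differences, and those of others did not. All 8 fibroblast markers and 11 of 12 peritubular myoid markers were higher in the control Sertoli fraction, with medians of 6.99 and 5.77, and the summed signal of the fibroblast list, in multiples of the 75th percentile, was 320 to 657 there against 3.39 to 4.94 in the germ fraction. For the myoid list the sums were 621 to 921 and 30.5 to 37.2. Other lists were mixed or went the other way. At the threshold, 5 of 12 endothelial markers were higher and 2 lower (median 0.59). Of 7 tested Leydig markers 2 were higher and 2 lower (median -0.65), and of 13 tested macrophage markers 3 and 7 (median -1.40). Of 8 spermatogonial markers 0 were higher and 5 lower (median -1.38), and Gfra1 of that list entered the test through the germ fraction only. Stra8 and Dazl of the same list, and Ptprc of the macrophage list, were not well above background on any control Sertoli array. These genes could therefore hardly come out higher there. Of 19 tested Sertoli markers 7 were higher and 9 were lower at the threshold, with a median of -0.82, and the sums were 65.8 to 83.3 in the Sertoli and 133 to 167 in the germ fraction. Amh and Fshr, both on the Sertoli list, did not rise well above background anywhere in the fraction labelled Sertoli. All 13 spermatid and all 12 spermatocyte markers were lower there. Of these, 3 spermatid markers (Acrv1, Tssk2 and Odf1) and 4 spermatocyte markers (Sycp1, Spo11, Hormad1 and Piwil1), like the Sertoli marker Fshr, entered the test through the germ fraction only and had to be lower, and the fibroblast marker Dpt entered through the Sertoli fraction only and had to be higher. Among all tested genes 39.8% were higher and 36.6% lower at the threshold, a split not far from that of the Sertoli list. That list thus did not stand out as higher in the fraction labelled Sertoli, and the names of the fractions are used below as labels only. How much of the basement membrane difference belongs to fibroblasts, myoid cells or other cells was not tested. In such bulk samples fewer cells of a type and less RNA per cell cannot be told apart.

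The second comparison set knockout against control mice in the germ fraction. No member passed the threshold, against 0.224% of all tested genes (56 genes). At an unadjusted p under 0.05, 9 members (27.3%) were higher in knockout mice, against 6.09% of all tested genes, and 0 were lower, against 1.28%. The count of 9 was 5 with median scaling or without control mouse 73, and 4 with only the mice of 8 months. The members' median difference, knockout minus control, was 0.36 and 26 of 33 were above 0, while the median of all tested genes was -0.04 and 45.1% were above 0. By role, the median was 0.83 for collagen IV (6 of 6 above 0), 0.42 for the laminins (7 of 10), 0.41 for the matricellular group (6 of 6), 0.23 for the other collagens (2 of 3), 0.03 for the Fraser genes and Npnt (3 of 4) and 0.02 for the linkers (2 of 4). With the medians of the arrays as the scale, the members' median was 0.24 and 24 of 33 were above 0, while the median of all tested genes moved to -0.16.

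Col4a1 had the smallest p of the set. It lay at -2.41, -2.10 and -1.98 in the germ fraction of control mice 99, 73 and 74 and at -0.97, -1.42 and -1.35 in that of knockout mice 120, 86 and 72. The groups did not overlap. The difference was 0.92 ± 0.20 (95% interval 0.48 to 1.35) and did not pass (adjusted p 0.118, and 0.155 with the slide as a block). Within the 3 slides, each of which held 1 knockout and 1 control mouse, it was 1.44, 0.68 and 0.64.

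Its neighbour Col4a2 lay at -0.77, -1.62 and -1.27 in knockout mice 120, 86 and 72, all above the control values given above. The difference was 0.96 ± 0.35 (adjusted p 0.466), and within slides it was 1.98, 0.47 and 0.43. Col4a5 lay at -3.17, -3.52 and -2.96 in the knockout mice, again above all 3 control arrays, with a difference of 0.96 ± 0.30 (adjusted p 0.353). In all 3 chains the control array of mouse 99 was the lowest. Without mouse 99, the unadjusted p of Col4a2 and Col4a5 no longer lay under 0.05, while that of Col4a1 did. Col4a3, with 0.75 ± 0.43, also did not overlap between the groups, but its within-slide differences were 1.92, 0.18 and 0.15. Col4a4 (0.40 ± 0.35) and Col4a6 (0.16 ± 0.33) overlapped.

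Lamb2, the beta chain of mature muscle, nerve and kidney laminins, gave the largest difference of the laminins. Control mice 99, 73 and 74 had -2.33, -1.65 and -1.20, and knockout mice 120, 86 and 72 had -0.53, -0.94 and -0.40. All knockout arrays lay above all control arrays, by 1.10 ± 0.34 on average (adjusted p 0.323). Lamc1 lay at -1.24, -1.64 and -0.93 in the knockout mice, and its lowest knockout value met the highest control value. Its difference was 0.89 ± 0.28 (adjusted p 0.333). Lamc3, a gamma chain described at the junction between Sertoli cells and spermatids, lay at -1.78, -2.03 and -1.66 in the control and at -1.22, -1.23 and -0.96 in the knockout mice. Its groups did not overlap, and the difference of 0.69 ± 0.24 was even across slides (0.56, 0.80 and 0.70; adjusted p 0.446).

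Lama4 lay at -3.33, -3.22 and -3.45 in the control and at -2.92, -2.50 and -3.12 in the knockout mice, without overlap, a difference of 0.49 ± 0.20 (adjusted p 0.618). Col18a1 lay at 0.26, -0.41 and 0.06 in the control and at 0.25, 1.02 and 0.80 in the knockout mice, with an overlap through mice 99 and 120. Its difference was 0.72 ± 0.30 (adjusted p 0.619). Lama1 completed the 9 genes, with 0.62 ± 0.26 (adjusted p 0.623). Col18a1 and Lama1 had no such difference between the mice of slide 1, at -0.015 and -0.17, while slides 2 and 3 gave 1.43 and 0.74 for Col18a1 and 1.12 and 0.92 for Lama1.

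**Figure D2:**
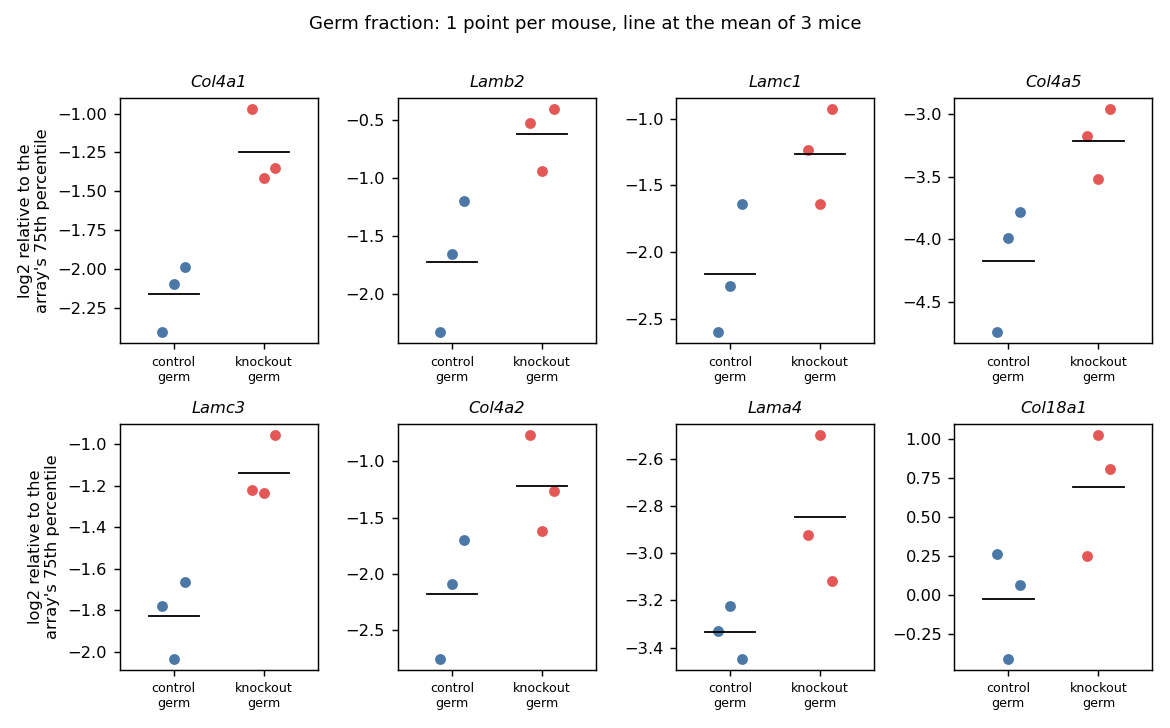
Each panel plots 1 gene in the germ fraction as log2 relative to the 75th percentile of the array (y axis, own range per panel), with 1 point per control mouse (blue) and knockout mouse (red) and a line at each mean. Col4a1, Lamb2, Col4a5, Lamc3, Col4a2 and Lama4 do not overlap between the genotypes, whereas Lamc1 and Col18a1 do.

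Arrays did not overlap with the knockout mice higher in 7 members (21.2%), against 6.55% of all tested genes, and these were Lama4, Lamb2, Lamc3, Col4a1, Col4a2, Col4a3 and Col4a5. With the knockout mice lower there was 1, Lamb3 (-0.12 ± 0.27), against 9.19% of all tested genes. The remaining members had differences between -0.22 (Fras1) and 0.90 (Ntn4, netrin-4, which loosens laminin networks), all with overlapping arrays. Nid1 (-0.10 ± 0.19) and Nid2 (-0.17 ± 0.23) lay near 0. Among the 6 germ arrays, that of control mouse 99 was the lowest in 15 of 33 members, against 24.3% of all tested genes. The members' median was 0.24 without this mouse and 0.23 without knockout mouse 72.

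Markers of several somatic cell types lay higher in the same fraction. The median difference was 0.80 for the fibroblast list (5 of 8 above 0), with Pdgfra as the only 1 of these 8 genes to pass (1.25 ± 0.19, adjusted p 0.0349). It was 0.50 for the myoid list (10 of 12 above 0), 0.46 for the Sertoli list (18 of 19), 1.34 for the Leydig list (7 of 7), 1.01 for the macrophage list (11 of 13) and 0.22 for the endothelial list (12 of 12), and no gene of these 5 lists passed. The summed fibroblast signal was 4.67 to 6.15 in knockout and 3.39 to 4.94 in control mice, and the summed myoid signal 37.6 to 44.2 and 30.5 to 37.2. The summed macrophage signal went against that list's median, at 32.8 to 35.7 in knockout and 39.2 to 47.9 in control mice, without overlap. Of the germ cell lists, 11 of 12 spermatocyte markers lay lower in knockout mice, with a median of -0.20, and 11 of 13 spermatid markers, with a median of -0.34. The 8 spermatogonial markers were split, 4 higher and 4 lower, with a median of 0.11. No gene of these lists passed. The summed spermatocyte signal was 119 to 135 in knockout and 145 to 173 in control mice, without overlap, and the summed spermatid signal 513 to 595 and 555 to 667. The summed collagen IV signal was 1.12 to 1.80 and 0.60 to 1.04 in the same arrays, and 95.9 to 129 in the control Sertoli fraction. Of the defining fibroblast genes, Dpt did not reach the level well above background in any germ sample. The part of these cells in the germ fraction values was not tested.

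The same comparison in the Sertoli fraction gave no member past the threshold, and 0% of all tested genes passed. At an unadjusted p under 0.05, 3 members were lower in knockout mice, against 2.42% of all tested genes, and 0 were higher, against 0.651%. With quantile normalization, median scaling or the authors' log2 table, 1 was lower. The members' median difference was -0.07 with 22 of 33 below 0, and the median of all tested genes was -0.10 with 34.8% above 0. Under quantile normalization the split was 16 below and 17 above 0, and under median scaling 17 and 16.

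Npnt had the smallest p. It lay at -3.22, -3.93 and -3.91 in the Sertoli fraction of control mice 99, 73 and 74 and at -4.57, -4.70 and -5.26 in that of knockout mice 120, 86 and 72. The groups did not overlap, and the differences within slides were -1.35, -0.77 and -1.35. The fitted difference was -1.16 ± 0.24 (95% interval -1.70 to -0.62) and did not pass (adjusted p 0.503, and 0.641 with the slide as a block). A second, dimmer Npnt probe gave -0.66 ± 0.72. In the germ fraction Npnt differed by 0.05 ± 0.24. Its means there, -6.88 in control and -6.83 in knockout mice, lay near background, and 2 of 3 control arrays were well above it. A decrease in that fraction could therefore hardly be seen.

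Frem1 lay at -1.79, -1.57 and -2.32 in the control and at -2.46, -2.85 and -2.59 in the knockout mice, without overlap, a difference of -0.74 ± 0.23 (adjusted p of 1). Col7a1 lay at -0.20, 0.32 and 0.19 in the control and at -0.66, -0.53 and -0.08 in the knockout mice, which overlapped, with -0.53 ± 0.22. Lamb3, with the values given above, differed by -0.49 ± 0.27, and knockout mouse 72 alone lay below the control range by more than 1 log2 unit. Arrays did not overlap with the knockout mice lower in 5 members (15.2%), against 4.92% of all tested genes, namely Npnt, Frem1, Nid1 (-0.14 ± 0.19), Smoc1 (-0.56 ± 0.45) and Fbln2 (-0.32 ± 0.23). With the knockout mice higher there were 0, against 1.85%.

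**Figure D3:**
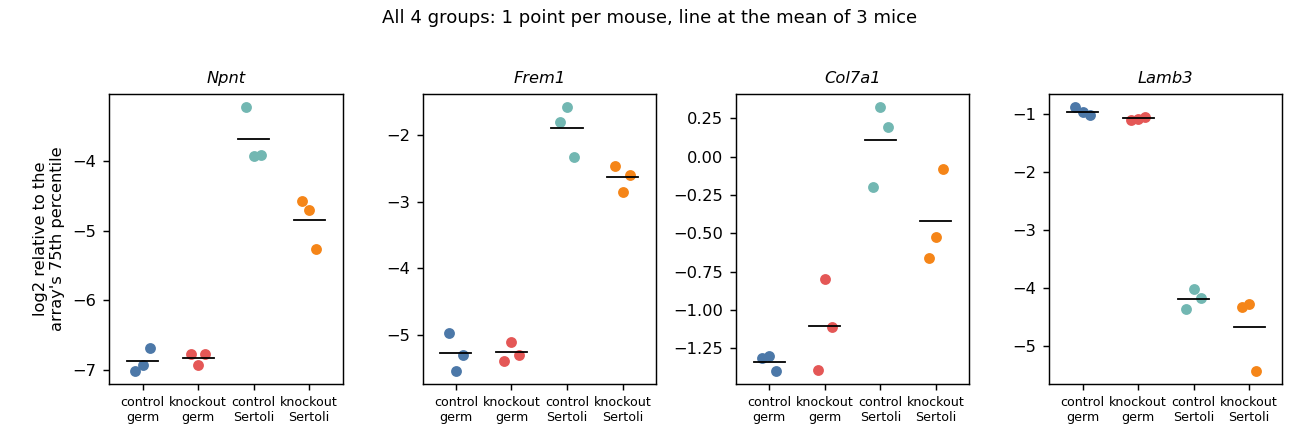
Each panel plots 1 gene in all 4 groups as log2 relative to the 75th percentile of the array (y axis, own range per panel), with 1 point per mouse and a line at each group's mean. Npnt and Frem1 lie lower in the knockout than in the control Sertoli fraction without overlap, and Lamb3 is the one gene shown whose germ fraction lies above its Sertoli fraction.

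The collagen IV chains with the smallest p in the germ fraction, which did not pass there, did not pass here either. Col4a1 gave -0.04 ± 0.20 (95% interval -0.47 to 0.40), Col4a5 0.00 ± 0.30 and Col4a2 -0.23 ± 0.35. Col4a4 gave 0.40 ± 0.35 in each fraction and Col4a3 0.29 ± 0.43 in the Sertoli fraction, and the collagen IV median there was -0.02. Sparc, which encodes a collagen-binding matricellular protein, gave -0.56 ± 0.33, and its control array of mouse 74, at 8.23, lay above the other control arrays at 7.05 and 6.89. That array, which has the lowest 75th percentile, was the highest of the 6 Sertoli arrays in 10 of 33 members, against 46.6% of all tested genes. All 12 myoid markers lay lower in the knockout Sertoli fraction, with a median of -0.39, and none of them passed. Of the spermatid markers 11 of 13 lay lower, with a median of -1.07, while 34.8% of all tested genes lay above 0. At an unadjusted p under 0.05, 6 were lower, against 2.42% of all tested genes, and none passed the threshold. The summed signal of this list was 0.81 to 0.95 in knockout mice and 1.10, 1.47 and 3.77 in control mice 99, 73 and 74. Its genes Acrv1, Tssk2 and Odf1 were not well above background on any Sertoli array. Of the endothelial markers 10 of 12 lay higher, with a median of 0.40, and none passed. The part of these cells in the Sertoli fraction values was not tested.

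**Figure D4:**
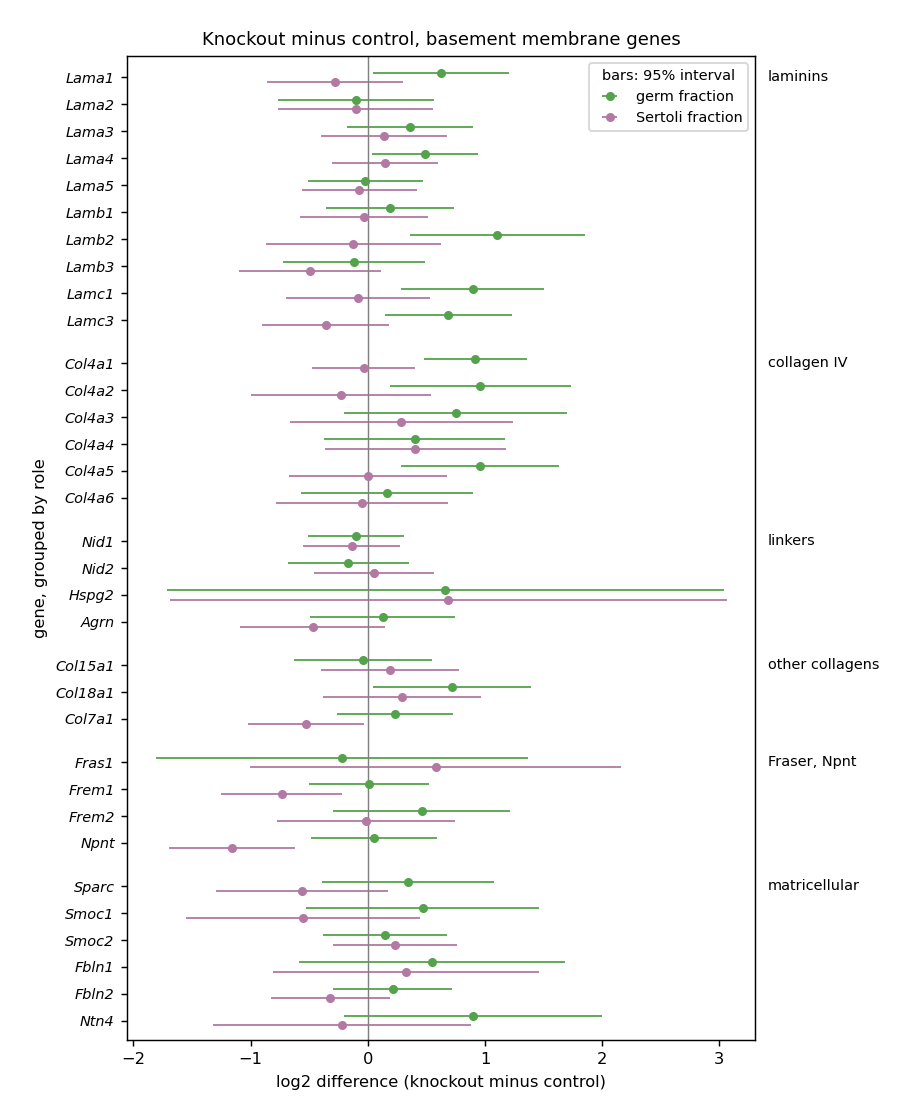
The log2 difference between knockout and control mice (x axis, knockout minus control) is plotted for each of the 33 genes (y axis, grouped by role), in the germ fraction (green) and the Sertoli fraction (purple), with 95% intervals of the fit. The intervals of 9 genes (Col4a1, Col4a2, Col4a5, Lama1, Lama4, Lamb2, Lamc1, Lamc3 and Col18a1) lie above 0 in the germ fraction, those of Npnt, Frem1 and Col7a1 lie below 0 in the Sertoli fraction, and no gene passed after adjustment over all tested genes.

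Whether the knockout difference itself differed between the fractions was tested with the interaction term (Sertoli minus germ). No member passed, against 0.00799% of all tested genes. At an unadjusted p under 0.05, 10 members (30.3%) had a negative term, against 4.09% of all tested genes, and 0 had a positive one, against 0.503%. The count of 10 was 3 without knockout mouse 72, 5 without mouse 120 or mouse 73 or with only the mice of 8 months, and 4 with median scaling. The members' median was -0.46 with 27 of 33 below 0, and that of all tested genes was -0.09. The smallest adjusted p was 0.714, for Npnt (-1.21 ± 0.34), followed by 0.747 for Col4a1 (-0.95 ± 0.28) and 0.847 for Lamc3 (-1.05 ± 0.35). For Npnt the term is limited by a germ signal near background. Lamb2 gave -1.23 ± 0.48, Col4a2 -1.19 ± 0.49, Lamc1 -0.98 ± 0.39, Col4a5 -0.96 ± 0.43 and Lama1 -0.90 ± 0.37. Col7a1 (-0.76 ± 0.32) and Frem1 (-0.74 ± 0.33) completed the 10. This term uses the same 12 arrays as both knockout comparisons and adds no separate evidence.

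Of the 33 genes, 12 had several probes. Their probes pointed to both sides of 0 in 6 genes in the germ fraction (Lama2, Col4a6, Nid1, Hspg2, Col15a1 and Fbln1) and in 3 in the Sertoli fraction (Col4a4, Nid1 and Col15a1), all at sizes that did not pass. Between fractions they did so in 2 genes in control mice (Lama3 and Fbln1) and in 2 in knockout mice (Lama3 and Agrn). The second Lama3 probe gave -0.03 ± 0.20 between the fractions of control mice and -0.60 ± 0.20 in knockout mice, where it passed (adjusted p 0.0211), while the first gave 0.44 ± 0.24 there. So for Lama3 the direction depended on the probe. The size did so for Hspg2, whose second probe gave 2.89 ± 0.49 between the fractions of control mice, and for Agrn, whose second probe gave 0.996 ± 0.59 and did not pass (adjusted p 0.145). The second Fbln1 probe gave -0.03 ± 0.88.

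For Hspg2, the brighter probe lay at -4.31, -1.25 and -0.80 in the germ fraction of control mice 99, 73 and 74 and at -0.25, -3.60 and -0.53 in that of knockout mice 120, 86 and 72. In the Sertoli fraction it lay at 5.17, 2.67 and 4.92 in the control and at 5.02, 4.62 and 5.17 in the knockout mice. Single arrays of 3 of the groups were thus 2 or more log2 units away from their partners. The other probe moved the same way between fractions, by 2.89 ± 0.49 in control mice, with smaller departures in the same arrays. Both Col18a1 probes gave similar differences in the germ fraction, 0.72 ± 0.30 and 0.77 ± 0.32.

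**Figure D5:**
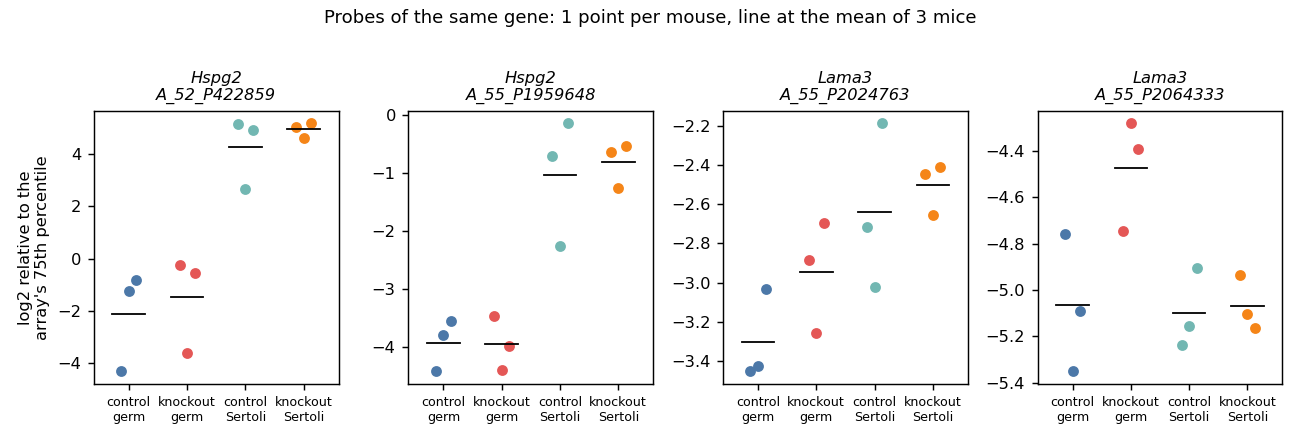
Each panel plots 1 probe of Hspg2 or Lama3 in all 4 groups as log2 relative to the 75th percentile of the array (y axis, own range per panel), with 1 point per mouse and a line at each group's mean. Both Hspg2 probes are higher in the Sertoli fraction, with single germ arrays at -4.31 and -3.60 on the brighter probe, and the Lama3 probes differ in direction between the fractions.

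Genes that act on the basement membrane were counted from lists beside the set. Of 14 receptors, such as integrins, dystroglycan and the discoidin domain receptors, 12 were higher, against 39.8% of all tested genes, and 1, Itga2, was lower in the control Sertoli fraction, with a median of 3.46. Itga2 was well above background in the germ fraction only, so it had to be lower. In the germ fraction 11 of 14 lay higher in knockout mice with a median of 0.52, against 45.1% of all tested genes above 0. At an unadjusted p under 0.05, 5 were higher, against 6.09% of all tested genes, and 0 passed. The 3 with the smallest p were the collagen receptors Ddr2 (0.81 ± 0.20, adjusted p 0.179) and Ddr1 (1.44 ± 0.42, 0.295) and the syndecan Sdc4 (0.87 ± 0.29, 0.382). Of 17 enzymes and chaperones of collagen assembly and crosslinking, 16 were higher in the Sertoli fraction of control mice and 1, the prolyl 3-hydroxylase P3h2, was lower (-1.99 ± 0.33). In the germ fraction of knockout mice 13 of 17 lay higher with a median of 0.25 and 0 passed. The transglutaminase Tgm2 (1.18 ± 0.23, adjusted p 0.0785), the lysyl oxidase Loxl2 (1.18 ± 0.28, 0.163) and the collagen galactosyltransferase Colgalt1 (0.66 ± 0.17, 0.231) had the smallest p, while Lox, another lysyl oxidase, gave -0.63 ± 0.25 (0.545).

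Of 10 tested further basement membrane proteins outside the set, 8 were higher and 2, Frem3 and Papln, were lower in the control Sertoli fraction. Among all tested genes 39.8% were higher and 36.6% lower. Frem3 was well above background in the germ fraction only, so it had to be lower. In the germ fraction 6 of 10 lay higher in knockout mice with a median of 0.11, against 45.1% of all tested genes above 0, and 0 passed. Tinagl1, a matricellular protein (0.91 ± 0.29, adjusted p 0.343), Vwa1, a perlecan-binding protein (0.96 ± 0.30, 0.344), and Egflam, or pikachurin (-0.23 ± 0.17, 0.968), had the smallest p. In the Sertoli fraction the medians of the 3 lists were -0.06 for the receptors, -0.04 for the enzymes and -0.13 for the further proteins, with 0 genes past the threshold in each.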

How the data were processed

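RNA of 12 samples (4 groups of 3 mice) was hybridised to 1-colour Agilent arrays. Per the file headers, images were read with Feature Extraction 10.7.3.1 on a grid of build mm9, and the deposited processed-signal intensity was background-subtracted within the array and not normalised between arrays. The deposited median intensity of spot and local background is uncorrected, per the file headers. The authors' deposited log2 table has column medians of 8.29 and follows the order of the processed signal, larger meaning more signal. Its normalisation is not stated. Limma is named in the submitters' processing notes.

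Control and outlier spots were left out, and spots of a probe were averaged. The log2 processed signal minus the array's 75th percentile was used. Accessions were matched to RefSeq (GRCm38.p6), which named 26055 of 39429 probes. A probe was kept if all 3 arrays of some group lay well above background (30533 probes), and the probe with the highest mean stood for its gene. All 33 members passed, and 29 did so on every array. Limma 3.58.1 (R 4.3.3) fitted 4 group means over 12 arrays, with Benjamini-Hochberg adjustment over all 25029 genes and a threshold of 0.05. The script was tested on simulated data.

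The members, lists and tests were chosen with earlier results of these data known. Values of every array are given for the 8 members with the smallest p in the germ fraction, the 4 in the Sertoli fraction, and up to 6 with the largest difference per direction between control fractions. Of related lists, genes past the threshold or the 3 with the smallest p are named. Itga2, P3h2, Frem3 and Papln between fractions, and Lox between genotypes in the germ fraction, were singled out after their values were seen. A gene of the list of further proteins is not reported here and was left out of that list's counts and medians.

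Mouse numbers pair the arrays, because each animal gave both fractions. For each mouse, the deviations of its arrays from their group means correlated across genes with r 0.25 (120), 0.28 (86), 0.20 (72), -0.16 (99), -0.12 (73) and 0.46 (74). Slides 1, 2 and 3 each carried 4 arrays, from mice 120 and 99, 86 and 73, and 72 and 74, so slide is balanced between genotypes, and both younger mice share slide 1. Alternatives covered background correction (normexp, offset 50), normalisation, filters, probe choice, slide and mouse as blocks, the arrays fitted, and leaving out mice.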

Additional observations from a re-analysis of the deposited data

How the results depend on the processing

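No member passed the threshold in either knockout comparison under any of 21 alternatives, or in the interaction under any of the 20 that could give it (a fit on only the arrays of the comparison cannot). Between fractions, 27 to 31 members were higher in the Sertoli fraction of control mice and 25 to 31 in that of knockout mice. Lamb3 was lower in every setting for control mice, and in knockout mice the count of lower members was 2 with every probe on its own, with only the arrays of the comparison, and without both mice titled het.

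For the germ fraction's 9 members at an unadjusted p under 0.05, the number was 5 with median scaling and 4 with only the mice of 8 months, and leaving out single mice gave 5 to 10, the lowest without mouse 73. The Sertoli fraction's 3 lower members became 1, Npnt, with quantile normalization, median scaling and the authors' log2 table. The interaction's 10 became 4 with median scaling and 5 with only the mice of 8 months, and 3 to 9 without single mice, the lowest without mouse 72. The members' median in the germ fraction, 0.36, was 0.24 with median scaling, 0.51 without both mice titled het and 0.25 with only the mice of 8 months, and 0.23 to 0.51 without single mice. In the Sertoli fraction, -0.07, it was -0.18 without both mice titled het, and up to 0.004 over the other settings, so its sign is not settled. The causes were not tested.

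With the mouse as a replicate block, no call on a member in the knockout comparisons changed, and the germ median stayed at 0.36 (Col4a1 adjusted p 0.122). The difference of Col4a1 lay between 0.66 and 1.16 and its adjusted p between 0.0672 and 0.631 over 21 alternatives, and that of Npnt in the Sertoli fraction between -1.62 and -0.91. The number of arrays limits these values, as does germ fraction signal at background for Col15a1 and near it for Npnt.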
